A study of Mus musculus with 39 samples.

Results

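Toll-like receptors sense microbial products and molecules released by damaged cells, and the proteins described here carry their signal as far as TRAF6. The 10 genes were 4 receptors (Tlr2, Tlr4, Tlr7 and Tlr13), 2 co-receptors (Cd14 and Ly96), 2 adaptors (Myd88 and Ticam1) and 2 kinases (Irak1 and Irak4). They were chosen by symbol, as the part of the pathway upstream of TRAF6, from 24062 mouse genes counted in each library. All 10 were among the 10411 genes with enough counts to be tested.

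RNA was sequenced from 39 samples of plaque rich in CD68, a macrophage protein, which laser capture took from aortic roots (6 µm sections) of female Apoe-/- mice (B6.129P2-Apoe<tm1Unc>). The groups were TRAF6i-HDL (n = 10), mTORi-HDL (n = 10), S6K1i-HDL (n = 9) and PBS (n = 10). Each inhibitor was given at 5 mg/kg, carried by particles of high-density lipoprotein (HDL). The protocol names its treatments otherwise, as CD40-HDL and as HDL carrying rapamycin, an mTOR inhibitor, or PF-4708671, an S6K1 inhibitor, and its placebo was saline. All mice had eaten a high-cholesterol diet for 12 weeks, were treated at 20 weeks of age with 4 intravenous injections in 7 days, and were killed 24 hours after the last one. All groups lacked Apoe, and this deletion itself raises plasma cholesterol. The protocol also names an empty particle, and none of these 39 samples carries it, so inhibitor and HDL carrier cannot be told apart against PBS. The labels do not tie samples to animals, so p-values measure the spread between these samples, which may be technical.

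Toll-like receptors span the cell surface (TLR2 and TLR4) or endosomal membranes (TLR7 and TLR13), and in plaque they are best known from macrophages. TLR4 recognises lipopolysaccharide together with MD-2, the product of Ly96, after CD14 has handed the ligand over. MYD88 passes the signal of nearly all of these receptors to the kinases IRAK4 and IRAK1 and so to TRAF6, the ubiquitin ligase for which TRAF6i-HDL is named. TRIF, the product of Ticam1, serves TLR3 and internalised TLR4 and leads to interferon genes as well as NF-kB.

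Counts in genes ran between 50091 and 6833491 per library. Mean depth differed by group, at 1836638 counts in TRAF6i-HDL, 3200136 in mTORi-HDL, 4479531 in S6K1i-HDL and 1388061 in PBS. Depth and group therefore cannot be fully told apart. Libraries of TRAF6i-HDL replicate 7 (66602 counts), S6K1i-HDL replicate 1 (118527) and PBS replicate 9 (50091) were far shallower than the rest, and the 10 genes together had only 42, 57 and 29 counts in them. Rn45s, a ribosomal RNA gene, took 17.8% ± 8.31 of the counts in TRAF6i-HDL, 23.1% ± 7.81 in mTORi-HDL, 37.0% ± 10.3 in S6K1i-HDL and 13.0% ± 10.9 in PBS (SD). Macrophage markers were abundant in every group: the 15 markers together reached a median of 18180 CPM in TRAF6i-HDL (range 10732 to 25725), 14327 in mTORi-HDL (7186 to 19880), 13074 in S6K1i-HDL (10239 to 15737) and 19246 in PBS (5485 to 27660). None of the 15 was at 0 in all libraries of a group. Lyz2 and Ctss had the highest medians of the 15 in each group, so these sums follow them closely. Ctss had a median of 2617 CPM in S6K1i-HDL and 8655 CPM in PBS, while Lyz2 had 5471 and 5787 CPM. Tested singly for S6K1i-HDL against PBS, the 15 markers had a median log2 fold change of -0.005, with 0 higher and 1 lower. For mTORi-HDL against PBS this median was -0.35 (1 higher, 1 lower), and for TRAF6i-HDL against PBS 0.23 (0 either way). CD68 staining chose the captured regions, so Cd68 is no finding. Markers of other cells were present too. The 6 fibroblast markers together reached medians of 7358 CPM in TRAF6i-HDL, 7686 in mTORi-HDL, 7719 in S6K1i-HDL and 8153 in PBS. Those of T and NK cells summed to medians of 78.6, 25.2, 76.8 and 36.6 CPM in the same order. The part of these other cells in the levels below was not tested. In bulk tissue, fewer macrophages and less RNA per macrophage cannot be told apart.

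Of the 6 genes with a promoter used here, Ticam1 was the only one called between groups, and Tlr13 was nearly level. The 250 bases before their transcription starts are therefore shown. Cd14, Tlr7 and Tlr4, which were also called, had no usable promoter. Both come from RefSeq (GRCm38.p6), which gave a usable promoter for 6 of the 10 genes. Capitals mark matches, on either strand, to CACGTG (an E-box of the kind bound by TFEB) and GAGGAAG (the core of the PU.1 site). The motifs, which also included the AP-1 site TGANTCA, were chosen after these promoters had been read.
Ticam1, chr17:56276768-56277017, minus strand: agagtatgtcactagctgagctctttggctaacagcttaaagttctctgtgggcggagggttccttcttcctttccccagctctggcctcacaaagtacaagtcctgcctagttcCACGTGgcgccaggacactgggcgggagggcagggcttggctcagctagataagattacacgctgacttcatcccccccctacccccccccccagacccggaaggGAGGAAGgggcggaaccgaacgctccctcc
Tlr13, chrX:106143025-106143274, plus strand: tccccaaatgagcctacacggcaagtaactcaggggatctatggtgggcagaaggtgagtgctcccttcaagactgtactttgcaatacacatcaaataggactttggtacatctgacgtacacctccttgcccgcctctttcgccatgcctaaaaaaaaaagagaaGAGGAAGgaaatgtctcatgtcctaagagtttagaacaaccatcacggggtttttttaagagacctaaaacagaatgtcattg

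The Ticam1 window held 1 CACGTG, 135 bases before the start, and 1 GAGGAAG at 30 bases. The Tlr13 window held 1 GAGGAAG at 83 bases and no CACGTG, and neither window held TGANTCA. The windows of Tlr2, Myd88, Irak4 and Irak1, not shown, held no match to any of these motifs. Among 32851 RefSeq promoter windows of this length, 6.02% held CACGTG, 10.6% GAGGAAG and 6.75% TGANTCA. A match describes letters and shows no binding, and the absence of one says only that these letters are not in this window.

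Read per length, Cd14 and Tlr13 were the most abundant of the 10 genes. Levels here are CPM, counts scaled to a common library size with TMM factors, divided by the kilobases of exon in the GENCODE vM21 annotation of GRCm38. Before this division the order differed, with medians of 126 CPM for Tlr13, 90.4 for Tlr4, 76.9 for Irak1, 61.6 for Tlr7 and 59.8 for Cd14. The division assumes even coverage of the exons, which was not tested in this amplified RNA. Cd14 had a median of 34.5 CPM per kb over 39 samples (range 15.7 to 77.7) and ranked first in 25 of them. Tlr13, a receptor for bacterial ribosomal RNA in the mouse, had a median of 29.3 CPM per kb (16.3 to 41.4) and ranked first in 13.
Irak1, Tlr4, Tlr7 and Ly96 followed with medians of 16.3, 16.3, 15.1 and 14.4 CPM per kb, and their sample ranges overlapped widely, so their order is not resolved. Tlr2 (9.44) and Ticam1 (8.19) came next, followed by Myd88 (4.90) and Irak4 (4.56). These belong to the myddosome, the complex in which MYD88 gathers the IRAK kinases, and so does Irak1, whose level was higher. Between neighbours in this order, the sample ranges overlapped in every case. In that annotation the Myd88 gene overlaps Acaa1a and Slc22a14, Irak4 overlaps Twf1, and Irak1 overlaps Mir718 and Mir5132, so reads shared with these neighbours may be in or missing from their counts. The strand setting is not given in the sources used here.

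**Figure D1:**
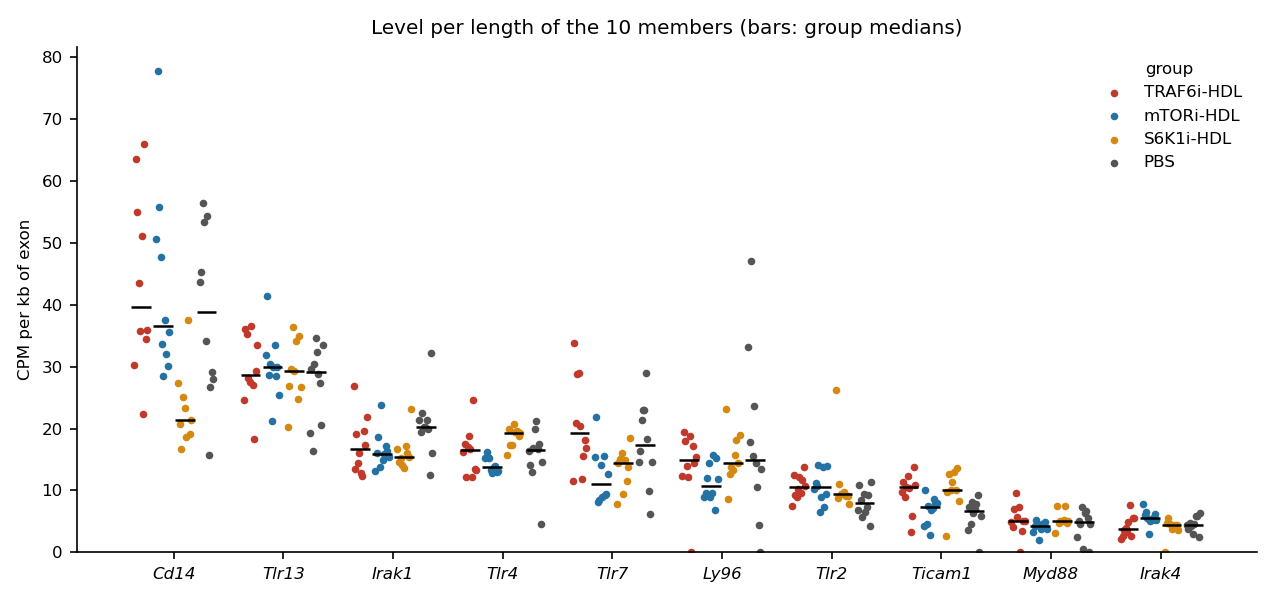
Level of each gene in CPM per kb of exon (vertical axis) for all 39 samples, with 1 column of points per group and a bar at each group median. Cd14 and Tlr13 lie above the other 8 genes in their medians over all samples, and the S6K1i-HDL points of Cd14 lie low, with a group median near that of Tlr4.

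The same 10 genes were compared between groups with edgeR's quasi-likelihood test, and the threshold was an adjusted p (Benjamini-Hochberg, over all 10411 genes) under 0.05. Against PBS, 0 of 10 passed in TRAF6i-HDL, where 0.0192% of all genes did, 0 of 10 in mTORi-HDL (1.64% of all genes) and 2 of 10 in S6K1i-HDL (11.9%). In TRAF6i-HDL 1 gene (Ticam1) had an unadjusted p under 0.05, beside 1158 of all 10411 genes. DESeq2 and limma-voom each called 0 of the 10 there, beside 25 and 1 of all genes. In mTORi-HDL 2 of the 10 had an unadjusted p under 0.05 (Tlr7 and Ly96), beside 1831 of all genes. DESeq2 called 0 of the 10 there (344 of all genes) and limma-voom 1 (Tlr7, beside 368 of all genes). Between inhibitors, 1 of 10 passed in TRAF6i-HDL against mTORi-HDL (2.92% of all genes), 1 of 10 in TRAF6i-HDL against S6K1i-HDL (1.59%) and 3 of 10 in mTORi-HDL against S6K1i-HDL (6.18%). All of these calls fell on Cd14, Ticam1, Tlr7 and Tlr4. The groups overlapped for every gene in every comparison. The 3 comparisons with PBS share its 10 samples, and likewise each inhibitor group serves in 3 comparisons.

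**Figure D2:**
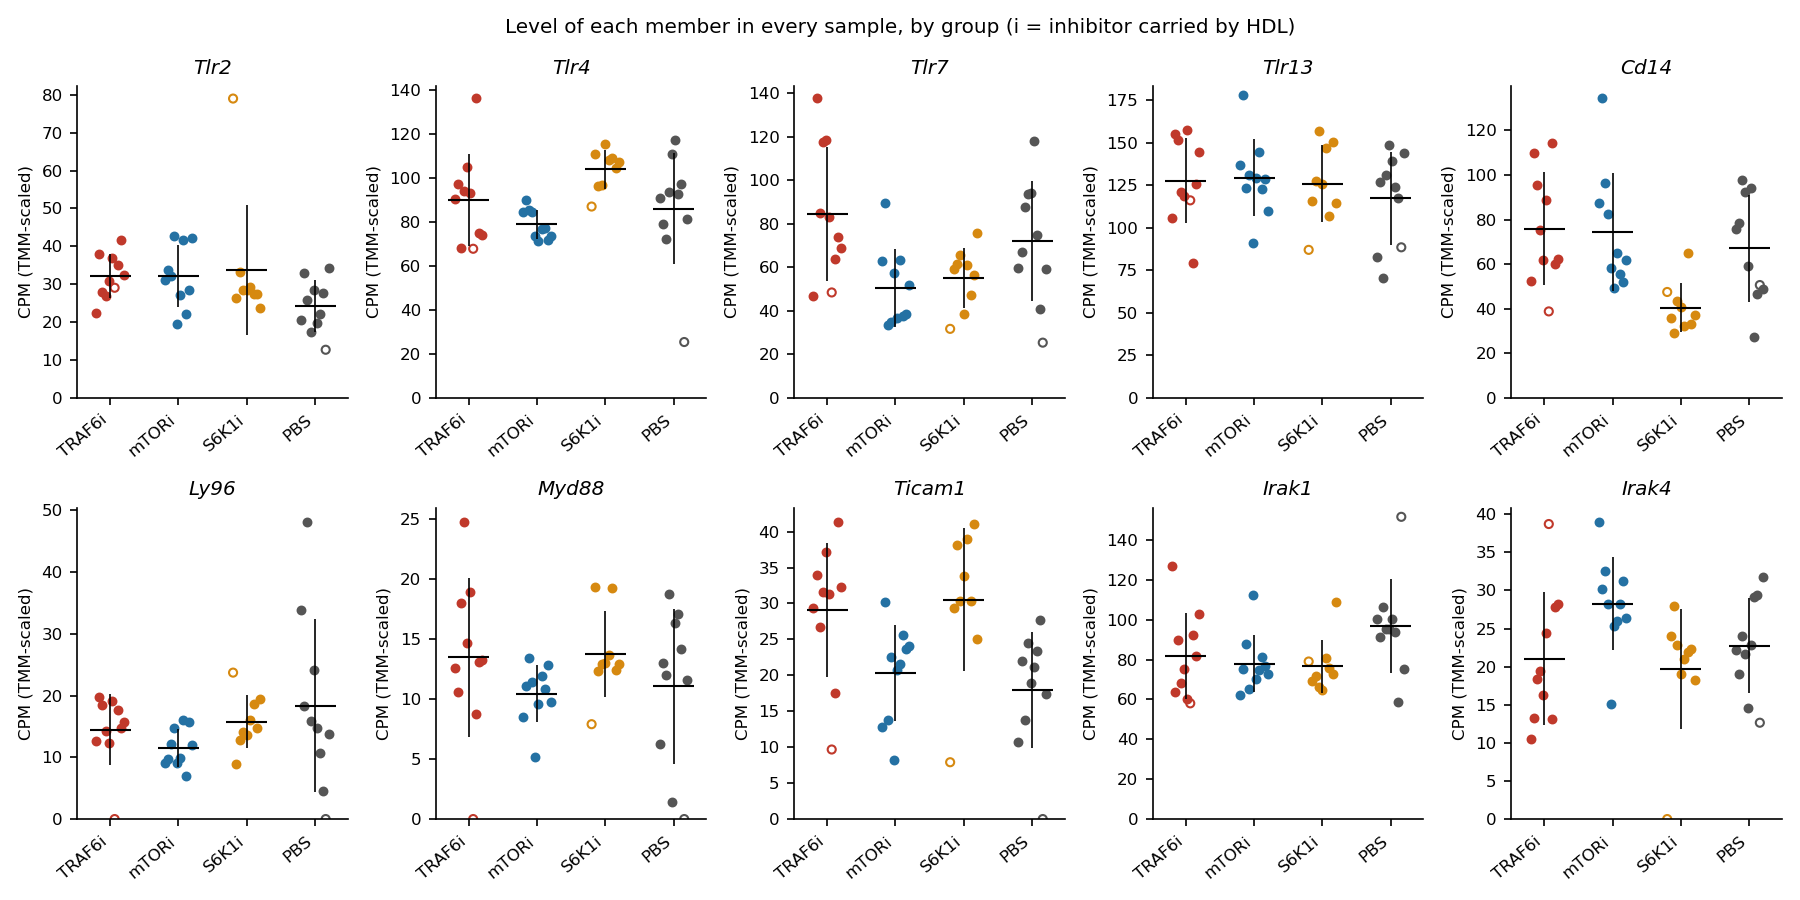
CPM of the 10 genes (vertical axes, each from 0) in every sample, with TRAF6i-HDL, mTORi-HDL and S6K1i-HDL left of PBS. Lines are group means, whiskers 1 SD, and open points the 3 libraries under 200000 counts. S6K1i-HDL samples lie low for Cd14 and high for Ticam1, and the open points often lie at a group's edge.

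Cd14, the co-receptor that delivers lipopolysaccharide to TLR4, had its lowest mean in S6K1i-HDL. Its lowest, median and highest levels were 38.7, 68.7 and 114 CPM in TRAF6i-HDL and 49.4, 63.3 and 135 CPM in mTORi-HDL. S6K1i-HDL samples had 29.0, 37.1 and 64.9 CPM and PBS samples 27.2, 67.3 and 97.8 CPM. All 9 S6K1i-HDL samples lay below the PBS mean, and 1 PBS sample lay below all of them.
S6K1i-HDL averaged 40.4 ± 10.9 CPM (SD, n = 9) and PBS 67.0 ± 24.0 CPM (n = 10), a fold of 0.595 and a log2 fold change of -0.75 ± 0.20 (SE, adjusted p = 0.0132). TRAF6i-HDL averaged 75.9 ± 25.3 CPM, 0.96 ± 0.20 above S6K1i-HDL on the log2 scale (adjusted p = 0.00965, 9 of 10 samples above the S6K1i-HDL mean). mTORi-HDL averaged 74.3 ± 26.5 CPM and was higher than S6K1i-HDL by 0.89 ± 0.20 (adjusted p = 0.00294, 10 of 10). Cd14 thus differed between S6K1i-HDL and each of the other groups. TRAF6i-HDL against PBS gave 0.21 (95% interval -0.18 to 0.61) and mTORi-HDL against PBS 0.14 (-0.24 to 0.53), and neither passed.

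Many S6K1i-HDL calls were lost when the Rn45s share was in the fit. That share averaged 37.0% in S6K1i-HDL and 13.0% in PBS, so this covariate and the group cannot be fully told apart. In S6K1i-HDL against PBS 1242 of all genes passed, against 38 with an Rn45s covariate and 350 with a detected-gene covariate. With the log2 Rn45s share as a covariate, Cd14 in S6K1i-HDL against PBS gave -0.32 ± 0.25 (adjusted p = 0.668), and with detected genes per library as the covariate it gave -0.67 ± 0.22 (adjusted p = 0.0805). Against TRAF6i-HDL the difference was 0.75 ± 0.20 with the Rn45s covariate (TRAF6i-HDL over S6K1i-HDL, adjusted p = 0.0943). Against mTORi-HDL it was 0.76 ± 0.19 (mTORi-HDL over S6K1i-HDL, adjusted p = 0.00671). This call held under all 12 alternative fits and under all 39 fits with 1 library left out. The sets of mTORi-HDL replicates that are listed apart, described below, were not fitted alone for this comparison. Leaving out any 1 library ended none of the 3 Cd14 calls.

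Ticam1, the gene of the adaptor TRIF, went the other way in S6K1i-HDL. Lowest, median and highest levels were 9.68, 31.5 and 41.3 CPM in TRAF6i-HDL and 8.22, 22.1 and 30.2 CPM in mTORi-HDL. In S6K1i-HDL they were 7.91, 30.3 and 41.0 CPM, and in PBS 0, 20.1 and 27.7 CPM. In TRAF6i-HDL 7 of 10 samples and in S6K1i-HDL 7 of 9 lay above the highest PBS sample, and the lowest samples of these 3 groups were the shallow libraries. The 0 in PBS replicate 9 allows up to 37.9 CPM, the level of 3 counts in that library.
Ticam1 rose to 30.5 ± 9.95 CPM in S6K1i-HDL, against 18.0 ± 8.09 CPM in PBS (SD), a fold of 1.64 and a log2 fold change of 0.71 ± 0.20 (adjusted p = 0.0134, 8 of 9 samples above the PBS mean). It was lower in mTORi-HDL (20.3 ± 6.70 CPM) than in S6K1i-HDL by -0.67 ± 0.18 (adjusted p = 0.0171, 10 of 10 samples below the S6K1i-HDL mean). TRAF6i-HDL had a level of 29.1 ± 9.27 CPM, close to S6K1i-HDL (-0.06, 95% interval -0.43 to 0.32). Against PBS this was 0.66 ± 0.20 (adjusted p = 0.208, 8 of 10 above the PBS mean) and against mTORi-HDL 0.61 ± 0.18 (adjusted p = 0.0516, 8 of 10), so neither passed. mTORi-HDL against PBS gave 0.05 (95% interval -0.34 to 0.44).

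Without the 3 shallow libraries Ticam1 gave 0.72 ± 0.19 in S6K1i-HDL against PBS (adjusted p = 0.00957) and 0.63 ± 0.17 in TRAF6i-HDL against mTORi-HDL (adjusted p = 0.0313), which then passed. With the Rn45s covariate the value for S6K1i-HDL against PBS was 0.23 ± 0.22 (adjusted p = 0.753), and with detected genes it was 0.31 ± 0.21 (adjusted p = 0.440). In mTORi-HDL against S6K1i-HDL, the Rn45s covariate gave -0.49 ± 0.17 (adjusted p = 0.0516) and the mean of the macrophage markers as a covariate -0.58 ± 0.20 (adjusted p = 0.0726). With group means removed, Ticam1 and this marker mean had a Pearson r of 0.77 over 39 samples. Over the 36 libraries of 200000 counts or more it was -0.02, so their tie rested on the shallow libraries. No single library ended either Ticam1 call.

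**Figure D3:**
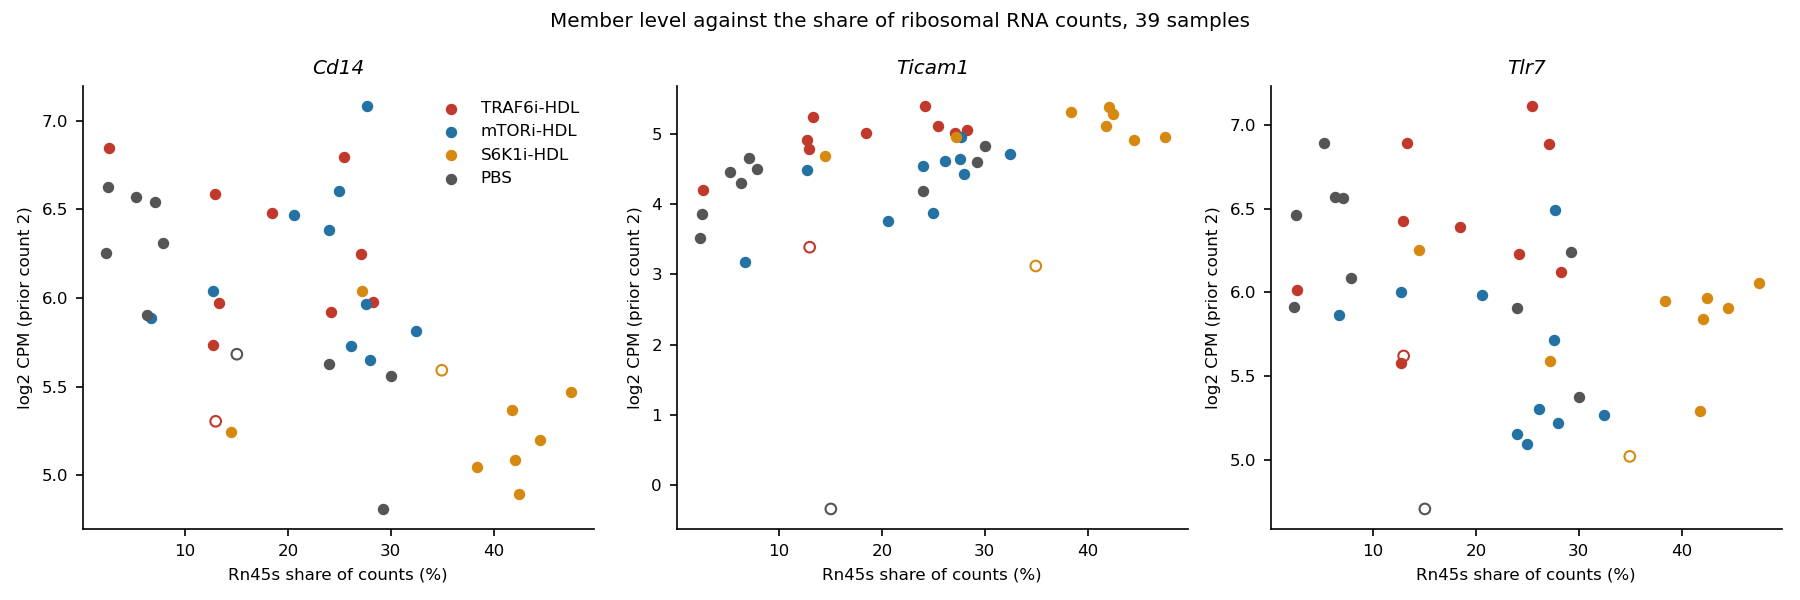
Log2 CPM of Cd14, Ticam1 and Tlr7 (vertical axes, prior count 2) against the percent of counts in Rn45s (horizontal axes) in the 39 samples, with open points for the 3 libraries under 200000 counts. Most S6K1i-HDL samples lie to the right, at a median Rn45s share of 41.8%, where Cd14 is low and Ticam1 high, while the PBS median share is 7.49%.

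Tlr7, the endosomal receptor for single-stranded RNA, was higher on average in TRAF6i-HDL than in mTORi-HDL. The lowest, median and highest levels were 46.9, 78.7 and 138 CPM in TRAF6i-HDL and 33.4, 45.2 and 89.5 CPM in mTORi-HDL. S6K1i-HDL had 31.6, 59.1 and 75.6 CPM and PBS 25.3, 70.9 and 118 CPM. The ranges of all groups overlapped, and 8 of 10 TRAF6i-HDL samples lay above the mTORi-HDL mean.
Means were 84.5 ± 30.9 CPM in TRAF6i-HDL and 50.6 ± 18.0 CPM in mTORi-HDL (SD, n = 10 each), a fold of 1.75 and a log2 fold change of 0.80 ± 0.19 (adjusted p = 0.00893). TRAF6i-HDL against S6K1i-HDL gave 0.62 ± 0.19 (adjusted p = 0.0788) and mTORi-HDL against PBS -0.58 ± 0.19 (adjusted p = 0.0914, 9 of 10 below the PBS mean). Both missed the threshold. S6K1i-HDL against PBS gave -0.39 (95% interval -0.79 to 0.00) and TRAF6i-HDL against PBS 0.23 (-0.16 to 0.62).

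Macrophage markers moved in the same comparison as Tlr7. Of 15, 6 were higher and 1 lower in TRAF6i-HDL than in mTORi-HDL, with a median log2 fold change of 0.50. With their mean as a covariate, a choice made after the data were seen, Tlr7 gave 0.41 ± 0.22 (adjusted p = 0.572). Over all genes, 27 passed with this covariate, against 304 without it. Within groups, Tlr7 and the marker mean had r = 0.63 over 39 samples and 0.35 over the 36 deeper libraries. The Tlr7 call held under the other 11 alternatives and with any 1 library left out.

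Tlr4, the lipopolysaccharide receptor, was lower in mTORi-HDL than in S6K1i-HDL. Its lowest, median and highest levels were 67.7, 91.7 and 136 CPM in TRAF6i-HDL and 71.3, 76.9 and 89.9 CPM in mTORi-HDL. The same values were 87.0, 107 and 116 CPM in S6K1i-HDL and 25.3, 91.6 and 117 CPM in PBS. These were the tightest groups of any of the 10 genes in mTORi-HDL and S6K1i-HDL, with coefficients of variation of 8.46% and 8.59%, and 9 of 10 mTORi-HDL samples lay below the lowest S6K1i-HDL sample.
mTORi-HDL averaged 78.8 ± 6.67 CPM and S6K1i-HDL 104 ± 8.93 CPM, a log2 fold change of -0.42 ± 0.12 (adjusted p = 0.0271, 10 of 10 samples below the S6K1i-HDL mean). Without S6K1i-HDL replicate 2, 5, 6 or 8 or mTORi-HDL replicate 6 it missed the threshold, with log2 fold changes between -0.43 and -0.39 over all 39 fits and adjusted p up to 0.0644. It also missed with the macrophage marker mean as a covariate (-0.31 ± 0.12, adjusted p = 0.134). Of the macrophage markers, 3 were lower and 1 higher in mTORi-HDL than in S6K1i-HDL. Within groups, Tlr4 and the marker mean had r = 0.77 over 39 samples and 0.16 over the 36 deeper libraries. Against PBS the log2 fold change of S6K1i-HDL was 0.21 (95% interval -0.04 to 0.46), that of mTORi-HDL -0.20 (-0.45 to 0.04) and that of TRAF6i-HDL 0.00 (-0.25 to 0.24).

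**Figure D4:**
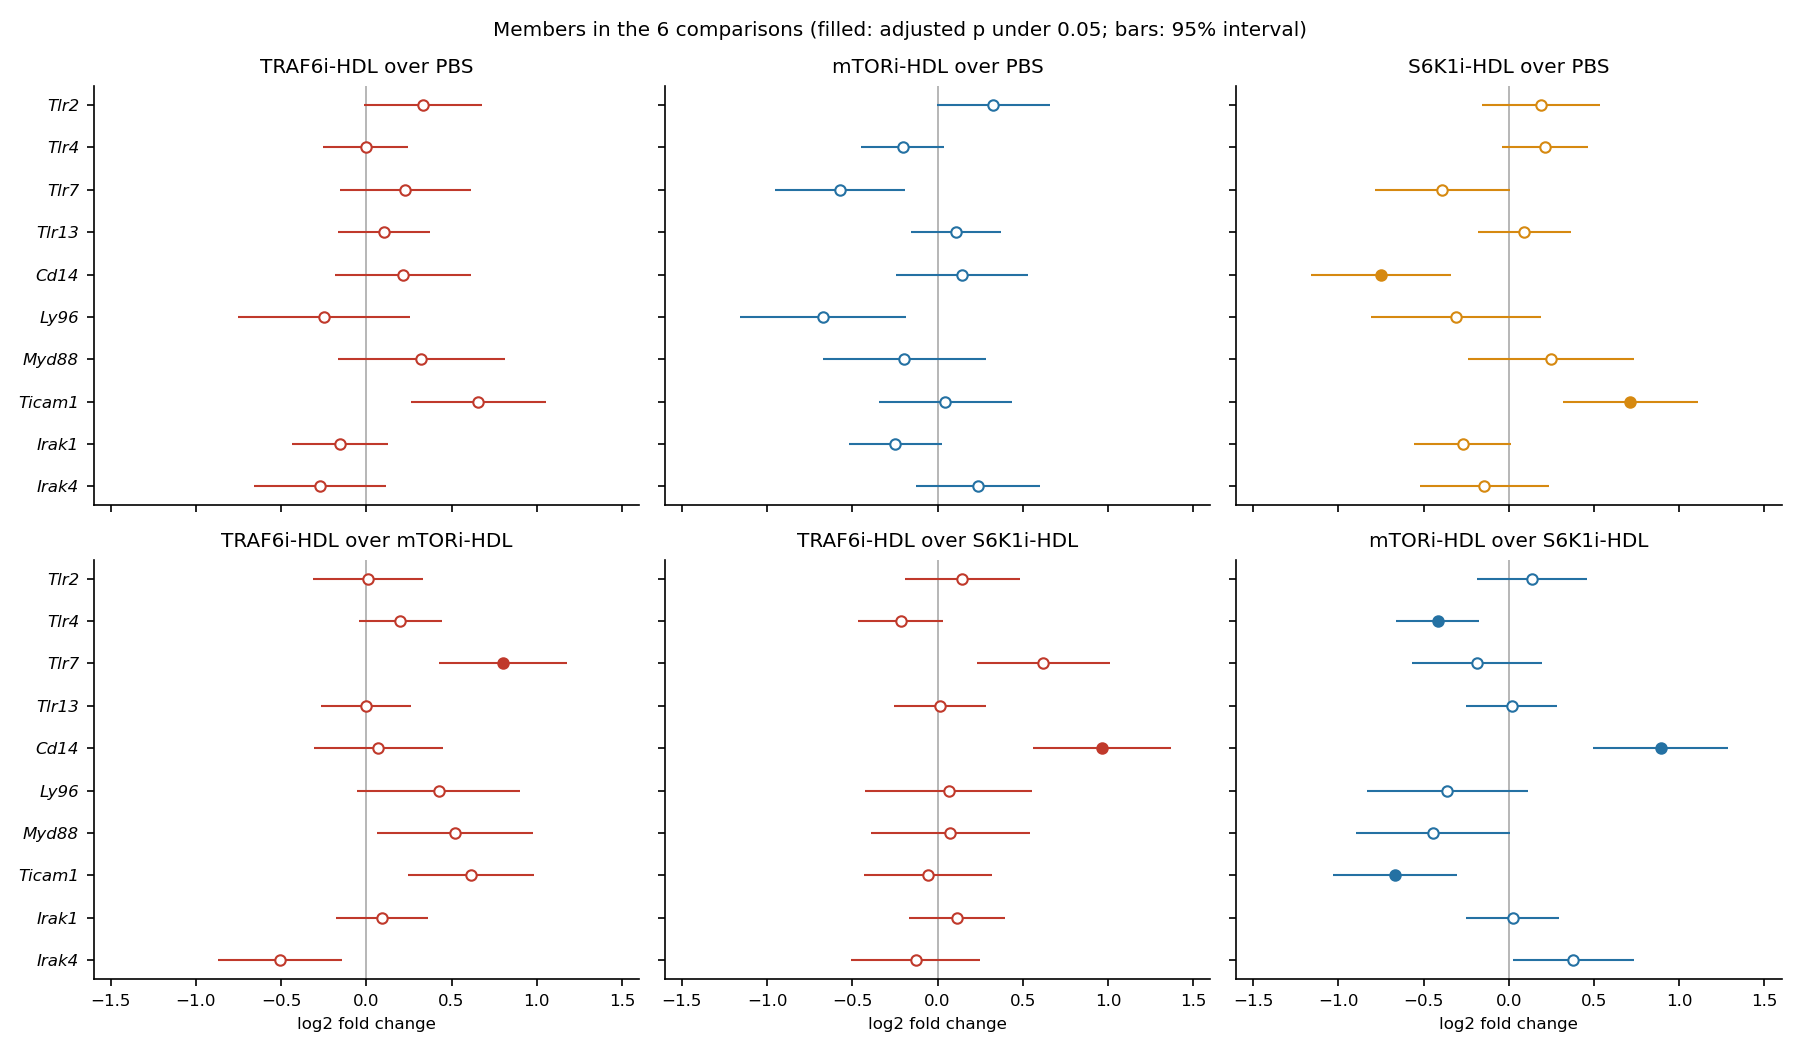
Log2 fold changes of the 10 genes in the 6 comparisons (horizontal axis, first-named group over second) with 95% intervals. Filled points passed at an adjusted p under 0.05: Cd14 in 3 comparisons, Ticam1 in 2, and Tlr7 and Tlr4 in 1 each.

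Ly96, which encodes the MD-2 subunit of the TLR4 complex, was sparse, with 0 to 131 counts per library. Its lowest, median and highest levels were 0, 15.2 and 19.8 CPM in TRAF6i-HDL, 6.94, 11.0 and 16.0 CPM in mTORi-HDL, 8.89, 14.7 and 23.7 CPM in S6K1i-HDL and 0, 15.3 and 48.1 CPM in PBS. PBS held the highest sample, and the samples at 0 were the shallow libraries of TRAF6i-HDL and PBS. All 10 mTORi-HDL samples lay below the PBS mean, and the log2 fold change of -0.67 ± 0.24 did not pass (adjusted p = 0.124).

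Tlr2, which pairs with TLR1 or TLR6 to sense bacterial lipopeptides, passed in no comparison. Median levels were 31.6 CPM in TRAF6i-HDL, 31.6 in mTORi-HDL, 28.4 in S6K1i-HDL and 24.0 in PBS. Samples ran between 22.4 and 41.7 CPM in TRAF6i-HDL, 19.5 and 42.6 in mTORi-HDL, 23.6 and 79.1 in S6K1i-HDL and 12.6 and 34.2 in PBS, so all groups overlapped. The 79.1 CPM was the shallow S6K1i-HDL library, where it rested on 10 counts. TRAF6i-HDL against PBS gave 0.33 ± 0.17 (adjusted p = 0.472, 9 of 10 samples above the PBS mean) and mTORi-HDL against PBS 0.33 ± 0.17 (adjusted p = 0.295, 8 of 10). S6K1i-HDL against PBS gave 0.19 ± 0.17, where edgeR's lower bound on the variance raised the unadjusted p to 0.674 (adjusted p = 0.832), against 0.282 from the F statistic alone.

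Tlr13 was the steadiest of the 10 genes across groups. Its lowest, median and highest levels were 79.1, 123 and 157 CPM in TRAF6i-HDL, 91.3, 129 and 178 CPM in mTORi-HDL, 87.0, 126 and 157 CPM in S6K1i-HDL and 70.4, 126 and 149 CPM in PBS. Each group covered most of the range of the others. The 6 log2 fold changes lay between 0.00 and 0.11, and the widest 95% interval against PBS ran between -0.18 and 0.37 (S6K1i-HDL). With the Rn45s covariate the value for S6K1i-HDL against PBS was -0.22 ± 0.15 (adjusted p = 0.610).

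Myd88, the adaptor shared by nearly all Toll-like receptors, had few reads and wide intervals. Its median levels were 13.2 CPM in TRAF6i-HDL, 11.0 in mTORi-HDL, 13.0 in S6K1i-HDL and 12.5 in PBS. Samples reached 24.7, 13.4, 19.3 and 18.7 CPM at most in the same order of groups, and all groups overlapped. No comparison passed. TRAF6i-HDL against mTORi-HDL gave 0.52 (95% interval 0.06 to 0.98, adjusted p = 0.226) and mTORi-HDL against S6K1i-HDL -0.44 (-0.90 to 0.01, adjusted p = 0.251). The libraries TRAF6i-HDL replicate 7 and PBS replicate 9 had 0 counts, which allows up to 29.0 and 37.9 CPM, above every other sample's level.

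Irak4, the first kinase of the myddosome, was highest in mTORi-HDL without passing. Lowest, median and highest levels were 10.5, 19.0 and 38.7 CPM in TRAF6i-HDL, 15.1, 28.2 and 38.9 CPM in mTORi-HDL, 0, 22.0 and 28.0 CPM in S6K1i-HDL and 12.6, 22.5 and 31.8 CPM in PBS. The 0 was S6K1i-HDL replicate 1, which allows up to 23.7 CPM, and all groups overlapped. TRAF6i-HDL against mTORi-HDL gave -0.51 ± 0.18 (adjusted p = 0.116, 9 of 10 samples below the mTORi-HDL mean) and mTORi-HDL against S6K1i-HDL 0.38 ± 0.18 (adjusted p = 0.203, 9 of 10 above the S6K1i-HDL mean). The first passed with limma-voom (-0.53 ± 0.16, adjusted p = 0.0397) and the second with the Rn45s covariate (0.52 ± 0.17, adjusted p = 0.0413).

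Irak1, the kinase that IRAK4 activates, had lower mean levels in each inhibitor group than in PBS, and none passed. Median levels were 78.6 CPM in TRAF6i-HDL, 75.1 in mTORi-HDL, 72.9 in S6K1i-HDL and 95.4 in PBS. Log2 fold changes against PBS were -0.27 ± 0.14 in S6K1i-HDL (adjusted p = 0.207), -0.25 ± 0.14 in mTORi-HDL (adjusted p = 0.333) and -0.16 ± 0.14 in TRAF6i-HDL (adjusted p = 0.721). In S6K1i-HDL 8 of 9 samples, in mTORi-HDL 9 of 10 and in TRAF6i-HDL 8 of 10 lay below the PBS mean of 96.9 ± 23.7 CPM, which includes 152 CPM in the shallow PBS library.

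Around these genes, 90 other genes of the pathway were read, of which 79 were tested: further receptors, chaperones, adaptors, kinases, transcription factors, targets and endogenous ligands. In TRAF6i-HDL against PBS 0 of 79 passed, and in mTORi-HDL against PBS 2 did (1.64% of all genes): Socs3, a feedback inhibitor of cytokine signalling, at 27.9 ± 9.01 CPM against 14.9 ± 4.07 CPM in PBS (0.91 ± 0.21, adjusted p = 0.0139), and Ly86, the partner of the receptor Cd180, at 51.1 ± 20.6 CPM against 77.3 ± 37.3 CPM (-0.67 ± 0.18, adjusted p = 0.0393). The Ly86 call held in 26 of 39 fits with 1 library left out. Neither the Socs3 nor the Ly86 call held with the Rn45s or detected-gene covariate, where 21 and 82 of all genes passed. In S6K1i-HDL against PBS 6 were higher (Cd180, Tlr9, Unc93b1, Pik3ap1, Rela and Il1b) and 4 lower (Hsp90b1, Nfkbia, Dusp1 and Hmgb1), beside 11.9% of all genes tested, so the count is near the background. With 1 library left out, Il1b was lost without PBS replicate 6 or S6K1i-HDL replicate 7, Hmgb1 held in 31 of 39 fits, and the other 8 held in all. The 79 had a median log2 fold change of 0.10 there, against 0.00 over all genes tested.

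Of 4 receptor chaperones tested, 1 was higher and 1 lower in S6K1i-HDL than in PBS, beside 11.9% of all genes. Unc93b1, which carries TLR7, TLR9 and TLR13 to endosomes, rose to 88.6 ± 8.65 CPM, against 49.3 ± 14.1 CPM in PBS (0.77 ± 0.17, adjusted p = 0.00322). All 9 samples lay above every PBS sample, and the share of all genes apart in this way was not counted. Hsp90b1, the endoplasmic reticulum chaperone gp96 that folds most Toll-like receptors, fell to 855 ± 156 CPM, against 1697 ± 549 CPM in PBS (-0.99 ± 0.17, adjusted p = 0.000271, 9 of 9 below the PBS mean). With the Rn45s covariate Hsp90b1 gave -1.05 ± 0.19 (adjusted p = 0.00263) and was the 1 call of these 10 that held, while Unc93b1 gave 0.41 ± 0.20 (adjusted p = 0.410). With detected genes as the covariate, Hsp90b1 was again the 1 that held. Of all genes, 38 passed with the Rn45s covariate and 350 with detected genes, against 1242 with neither.

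Between inhibitors, further receptor genes passed beside Tlr7. In TRAF6i-HDL against mTORi-HDL, 7 of 79 passed, where 2.92% of all genes did. Of these, 3 of 9 further receptors and co-receptors were higher: Ly86 (0.89 ± 0.18, adjusted p = 0.00246), Cd180 (0.60 ± 0.15, adjusted p = 0.0204) and Tlr8 (0.71 ± 0.19, adjusted p = 0.0241). Of 25 targets, Ccl3 was higher (1.13 ± 0.27, adjusted p = 0.0127), and Cxcl2, Sod2 and Ier3 were lower (adjusted p = 0.0326, 0.0359 and 0.0494). With the macrophage marker mean as a covariate 0 of these 7 passed, where 27 of all genes did, against 304 without it. With 1 library left out, Ly86, Cd180 and Ccl3 held in all 39 fits, Tlr8 in 36, Cxcl2 in 32, Sod2 in 31 and Ier3 in 20. In TRAF6i-HDL against S6K1i-HDL 1 of 79 passed (1.59% of all genes), the phosphatase gene Dusp1, which was higher (1.94 ± 0.43, adjusted p = 0.0181). It missed the threshold without TRAF6i-HDL replicate 8 (adjusted p = 0.0549), with the replicate block (0.0561) and with detected genes (0.0620) or the Rn45s share (0.0951) as a covariate.

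In mTORi-HDL against S6K1i-HDL, where Tlr4 and Ticam1 were lower and Cd14 higher, 7 of 79 were higher and 5 lower, beside 6.18% of all genes called in either direction. Lower were Cd180 (-0.93 ± 0.16, adjusted p = 7.54e-05), Unc93b1 (-0.80 ± 0.17, adjusted p = 0.00117), Tlr1 (-0.63 ± 0.16, adjusted p = 0.0105), Tlr9 (-0.88 ± 0.26, adjusted p = 0.0325) and Tnc. Higher were 5 of 25 targets, led by Dusp1 (2.55 ± 0.43, adjusted p = 0.000271), Nfkbia, the NF-kB inhibitor (1.09 ± 0.23, adjusted p = 0.00215), Sod2 (0.58 ± 0.14, adjusted p = 0.00637) and Cxcl2 (1.61 ± 0.47, adjusted p = 0.0311), together with Hsp90b1 and Hmgb1. With 1 library left out, Tnc held in 15 of 39 fits, Tlr9 in 27, Cxcl2 and the fifth target in 31 each, Hsp90b1 in 33 and Hmgb1 in 38, and the other 6 held in all. The macrophage covariate ended the calls of Tlr1, Tlr9 and Cxcl2, the Rn45s covariate those of Tlr9 and Tnc, and the replicate block those of Hsp90b1 and the fifth target. Endothelial markers moved too, 4 of 7 tested being higher in mTORi-HDL, and their part in these results was not tested.

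mTORi-HDL replicates 1 to 4 and 5 to 10 are listed apart in the series. Cd14 ran between 82.5 and 135 CPM in replicates 1 to 4 and between 49.4 and 64.9 CPM in replicates 5 to 10. The sets did not overlap, and the share of all genes apart in this way was not counted. Means were 100.3 ± 23.6 and 57.0 ± 5.84 CPM (SD, n = 4 and 6), a log2 fold change of 0.81 ± 0.23 (adjusted p = 0.118, where 0.355% of all genes passed). Tlr4 was also apart, at 86.1 ± 2.59 and 74.0 ± 2.40 CPM, with a log2 fold change of 0.22 ± 0.17 (adjusted p = 0.853). With replicates 5 to 10 alone, Cd14 in mTORi-HDL against PBS was -0.23 ± 0.20, and with replicates 1 to 4 alone 0.57 ± 0.23. Neither set was fitted alone against another inhibitor group. Between S6K1i-HDL replicates 1 to 6 and 7 to 9, also listed apart, 0 of the 10 genes passed (0.0192% of all genes). With S6K1i-HDL replicates 1 to 6 alone against PBS, Cd14 gave -0.86 ± 0.23 (adjusted p = 0.0109) and Ticam1 0.74 ± 0.22 (adjusted p = 0.0225). With replicates 7 to 9 alone, Cd14 gave -0.56 ± 0.30 and Ticam1 0.69 ± 0.27, with adjusted p-values of 0.590 and 0.447.

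Across samples, with group means removed, Tlr13 ran most closely with Mertk, Anpep and Iqgap1 among 8196 genes (Pearson r = 0.81, 0.81 and 0.79 over 39 samples). Mertk is an efferocytosis receptor of macrophages. The values were 0.80, 0.80 and 0.77 in the 36 libraries of 200000 counts or more. With the mean of the macrophage markers Tlr13 had r = 0.31 over 39 samples and 0.15 over 36. With the log2 Rn45s share it had 0.54 and 0.62. Cd14 ran most closely with Fcgr3, Eef1a1 and Mt2 (r = 0.67, 0.67 and 0.67 over 39 samples, and 0.66, 0.72 and 0.65 over 36, where Eef1a1 ranked 1, Fcgr3 17 and Mt2 19). Several nearest partners depended on the shallow libraries: Irak4 and Tsg101 had r = 0.90 over 39 samples and 0.24 over 36, and Tlr4 and Vps37a 0.89 and 0.55. These values are descriptions, since all genes of a library share its depth and composition.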

How the data were processed

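Each sample has a deposited file of whole-number counts for 24062 mouse symbols; 5 closing lines for reads given to no gene held 61.4% to 77.4% of a file's total and stayed out. The submitters' processing notes name TopHat2 2.1.0, Bowtie2 2.2.8 and HTSeq 0.6.1, and the build hg19, which is human and cannot carry these symbols, so the files give no coordinates. RNA was amplified with Ovation Pico WTA before sequencing, per the labels' protocols.

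The main test was edgeR 4.0.16 in R 4.3.3 (filterByExpr, 10411 genes; TMM; estimateDisp, glmQLFit and glmQLFTest, robust; group as the only term; all 39 samples) and figures drawn in Python 3.11.15 with matplotlib 3.10.9. SE is the log2 fold change over the root of F. DESeq2 1.42.0 and limma 3.58.1 served as alternatives. Members and gene lists were chosen with earlier results of these data known. Named besides the 10 genes were, per list and comparison, at most 4 passing genes with the smallest p, and the 3 nearest genes of a member by correlation. The fits with macrophage markers or with replicate sets as separate groups, and the one leaving Rn45s out of the counts, were added after seeing the data. No 2 libraries were identical.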

Additional observations from a re-analysis of the deposited data

Results flagged for a closer look

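In 11 of 40 combinations of gene and group, 1 sample lay farther from the others than Dixon's criterion allows, which chance gives in about 1 of 20 groups. In 8 of the 11 that sample was a library under 200000 counts. In S6K1i-HDL replicate 1, Tlr2 stood high at 79.06 CPM (10 counts), while Myd88 and Ticam1 stood low at 7.91 CPM (1 count each) and Irak4 at 0 CPM. In TRAF6i-HDL replicate 7, Ly96 and Myd88 were at 0 CPM. In PBS replicate 9, Tlr4 was at 25.28 CPM (2 counts) and Ticam1 at 0 CPM. The other 3 were in deeper libraries. In mTORi-HDL replicate 5, Myd88 was low at 5.19 CPM (12 counts) and Irak4 at 15.14 CPM (35 counts). In S6K1i-HDL replicate 9, Irak1 was high at 108.85 CPM (622 counts), where the other 8 samples lay between 64.6 and 81.0 CPM.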

How the results depend on the processing

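The number of the 10 genes past the threshold moved by over 1.5 times in these settings. In TRAF6i-HDL against PBS it was 1 at an unadjusted p under 0.05, beside 1158 of all 10411 genes. In mTORi-HDL against PBS it was 1 with limma-voom and 2 at an adjusted p under 0.2 or an unadjusted p under 0.05. Of all genes, limma-voom called 368 there, and these thresholds took 1169 and 1831. With 1 library left out the number of the 10 genes was 0 to 2 (2 without PBS replicate 8, 1 without mTORi-HDL replicate 2). In S6K1i-HDL against PBS it was 0 with detected genes or the Rn45s share as a covariate. There 350 and 38 of all genes passed, against 1242 in the main test. With S6K1i-HDL replicates 7 to 9 alone neither Cd14 nor Ticam1 passed, beside 1 of all genes. In TRAF6i-HDL against mTORi-HDL it was 0 with the macrophage covariate, 2 with DESeq2 size factors, the DESeq2 Wald test, the 5 CPM filter, the replicate block, detected genes, the Rn45s share or without the 3 shallow libraries, 3 with limma-voom or an adjusted p under 0.2, 4 at an unadjusted p under 0.05, and 1 to 2 with 1 library left out (2 without TRAF6i-HDL replicate 7 or 8, PBS replicate 1 or 9, or mTORi-HDL replicate 2). In TRAF6i-HDL against S6K1i-HDL it was 0 with the Rn45s share, 2 with limma-voom, only the 2 groups, an adjusted p under 0.2 or an unadjusted p under 0.05, and 1 to 2 with 1 library left out (2 without TRAF6i-HDL replicate 1). In mTORi-HDL against S6K1i-HDL it was 1 with the macrophage covariate, where 550 of all genes passed. In TRAF6i-HDL against mTORi-HDL, 27 of all genes passed with the macrophage covariate and 606 with limma-voom. An adjusted p under 0.2 took 1095 there, and an unadjusted p under 0.05 took 1735. In TRAF6i-HDL against S6K1i-HDL, 30 of all genes passed with the Rn45s share, 688 with limma-voom and 283 with only the 2 groups. An adjusted p under 0.2 took 931 there, and an unadjusted p under 0.05 took 1642.

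No called value changed sign. Of values that passed in no fit, some changed sign while moving by more than their standard error. With the Rn45s share, log2 fold changes became -0.032 (Tlr13) and 0.18 (Ly96) in TRAF6i-HDL against PBS; -0.10 (Tlr13), -0.27 (Ticam1) and -0.0057 (Irak4) in mTORi-HDL against PBS; -0.0023 (Tlr2), -0.22 (Tlr13), 0.45 (Ly96), -0.064 (Myd88) and 0.043 (Irak1) in S6K1i-HDL against PBS; and -0.27 (Ly96), 0.22 (Ticam1), -0.054 (Irak1) and 0.076 (Irak4) in TRAF6i-HDL against S6K1i-HDL. With detected genes they became -0.27 (Ticam1, mTORi-HDL against PBS), -0.048 (Tlr13) and -0.038 (Myd88, both S6K1i-HDL against PBS) and 0.24 (Ticam1, TRAF6i-HDL against S6K1i-HDL). With the macrophage covariate they became -0.0055 (Tlr4), -0.39 (Cd14) and -0.20 (Ly96) in TRAF6i-HDL against mTORi-HDL, -0.20 (Ly96) in TRAF6i-HDL against S6K1i-HDL and 0.024 (Tlr7) in mTORi-HDL against S6K1i-HDL. Limma-voom gave 0.087 for Ly96 in TRAF6i-HDL against PBS, and mTORi-HDL replicates 5 to 10 alone gave -0.23 for Cd14 against PBS. In at least 1 setting, 14 of the 60 values changed sign while moving by less; this limit was chosen after the values were seen. The cause of these changes was not tested.

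Same-numbered samples of different groups had a median correlation of 0.01 over 57 pairs, with group means removed. Samples of different numbers had 0.0004 over 513 pairs. These medians show no general likeness by number, and they cannot exclude a shared batch for some numbers. The replicate block ended the call of Tlr4 in mTORi-HDL against S6K1i-HDL (-0.39, adjusted p = 0.0553) and added Ticam1 in TRAF6i-HDL against mTORi-HDL (0.66, adjusted p = 0.0446). Tlr4 was also lost with no low-count filter (-0.41, adjusted p = 0.0609). Over all genes, calls over the alternatives numbered 0 to 25 (2 in the main test) in TRAF6i-HDL against PBS, 21 to 368 (171) in mTORi-HDL against PBS, 1 to 1922 (1242) in S6K1i-HDL against PBS, 27 to 606 (304) in TRAF6i-HDL against mTORi-HDL, 30 to 688 (166) in TRAF6i-HDL against S6K1i-HDL and 550 to 1850 (643) in mTORi-HDL against S6K1i-HDL. With 1 library left out they numbered 1 to 25, 73 to 435, 790 to 1496, 208 to 388, 56 to 259 and 463 to 824 in the same order. Group median counts of 19 to 143 limit the precision of Ly96, Myd88, Ticam1 and Irak4.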
